A study of Bos taurus with 10 samples.

Results

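KLF4 and KLF5 are Krüppel-like factors, transcription factors with zinc fingers that bind GC-rich and CACCC-type DNA. They were 2 of the 6732 genes with values in a series that set bovine embryos against adult bovine tissues. The members were all probe sets with values whose human symbol was KLF4 or KLF5. The array carries 4 of them, and 3 had values, 1 for KLF4 and 2 for KLF5. The other KLF4 probe set was blank on every array and was not analysed here.

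Pooled total RNA of embryos made by in vitro fertilization (IVF) and total RNA of adult spleen, muscle, lung, liver, kidney, heart and brain were hybridised to a human expression array, so human probes read bovine transcripts. There were 3 embryo arrays and 1 array of each of the 7 tissues. The labels used here state neither the stage of the embryos nor the number, age, breed and sex of the animals. The embryo arrays may be separate pools or repeats of 1 pool, which the labels leave unsaid. The p-values measure only the spread between the arrays used, and between embryo arrays it may be technical. In embryos against all 7 tissues, that spread also holds the differences between the tissues. Each value is an intensity after quantile normalization, on which every array has a median of 145.7. The number of arrays limits the precision, and low intensity can come from human probes that match the bovine transcript poorly as well as from little RNA.

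In the early mammalian embryo, KLF4 and KLF5 belong to the network of factors that maintains pluripotent cells, and KLF5 also acts in the trophectoderm, the epithelial shell of the blastocyst that gives rise to the placenta. KLF4 is widely known as a factor that, with POU5F1, SOX2 and MYC, reprograms differentiated cells to pluripotency. In the adult, KLF5 marks dividing epithelial cells, including those of the airways, and KLF4 is active in differentiating epithelia, endothelium and monocytes.

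Both genes were bright in embryos, and they differed in how far the adult lung came up to the embryo level. KLF4 was about as bright in lung as in embryos after quantile normalization. KLF5, by the brighter of its probe sets, was higher in embryos than in each of the 7 tissues, with lung next. The other KLF5 probe set was also brightest in embryos but showed nothing in lung that set it apart from the other tissues.

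KLF4 was read by probe set 221841_s_at. It read 1078, 1120 and 1032 on the 3 embryo arrays, a mean of 1077 ± 44.3 (SD, n = 3). Lung read 1113, inside the range of the embryo arrays. As deposited, before normalization, the embryo arrays read 988, 1196 and 1250 and lung 1202. With arrays scaled to a common median, the difference of embryos from lung was -0.39 log2 (limma adjusted p = 0.342). How near lung came to embryos thus depends on the scaling. The next tissues were muscle at 340.4, spleen at 332 and heart at 307, followed by kidney at 132, brain at 88.2 and liver at 48.5. The embryo and tissue groups therefore overlapped through lung alone, and the other 6 tissues averaged 208 ± 133 (SD, n = 6). On the log2 scale used for testing, log2(intensity + 72), the gap between lung and the embryo mean was 0.05, within the SD of the embryo arrays of 0.06. The gap between muscle and spleen was 0.03, also within it. That between spleen and heart was 0.09, and the embryo mean stood 1.48 above muscle. The tissues have no spread of their own, with 1 array each.

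KLF5 was read by probe sets 209211_at and 209212_s_at. The first read 487, 478 and 476 on the embryo arrays, a mean of 480.5 ± 5.85 (SD, n = 3). Lung followed at 158, just above the median of its array. Brain read 21.6, heart 11.8, liver 11.3, spleen 4.43, kidney 3.94 and muscle 1.60, with at most 9.24% of the probe sets of the same array dimmer. All 3 embryo arrays lay above all 7 tissues, as they did for 12.5% of the probe sets tested. The embryo mean was 3.05 times the lung value. Gaps between heart and liver (0.01 log2) and between spleen and kidney (0.01 log2) were within the embryo SD of 0.02, and no order can be read among values this low.

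The second KLF5 probe set varied more between embryo arrays. It read 241 and 233 on the first and the second embryo array but 107 on the third, below that array's median, for a mean of 194 ± 75.3 (SD, n = 3). The third array had the highest median of the 10 as deposited (221), and its deposited value of 167 was also below the 206.5 and 252 of the others. The tissues ran from 11.3 in brain to 47.5 in kidney, with heart at 40.4, liver at 32.1, lung at 28.9, muscle at 16.9 and spleen at 14.2. The groups did not overlap, which held for 9.43% of all probe sets analysed. Every gap between neighbouring tissues was smaller than the embryo SD of 0.46 log2. The 2 KLF5 probe sets thus had embryos brightest in common and disagreed on lung, which stood above the other tissues on the first and among them on the second.

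**Figure D1:**
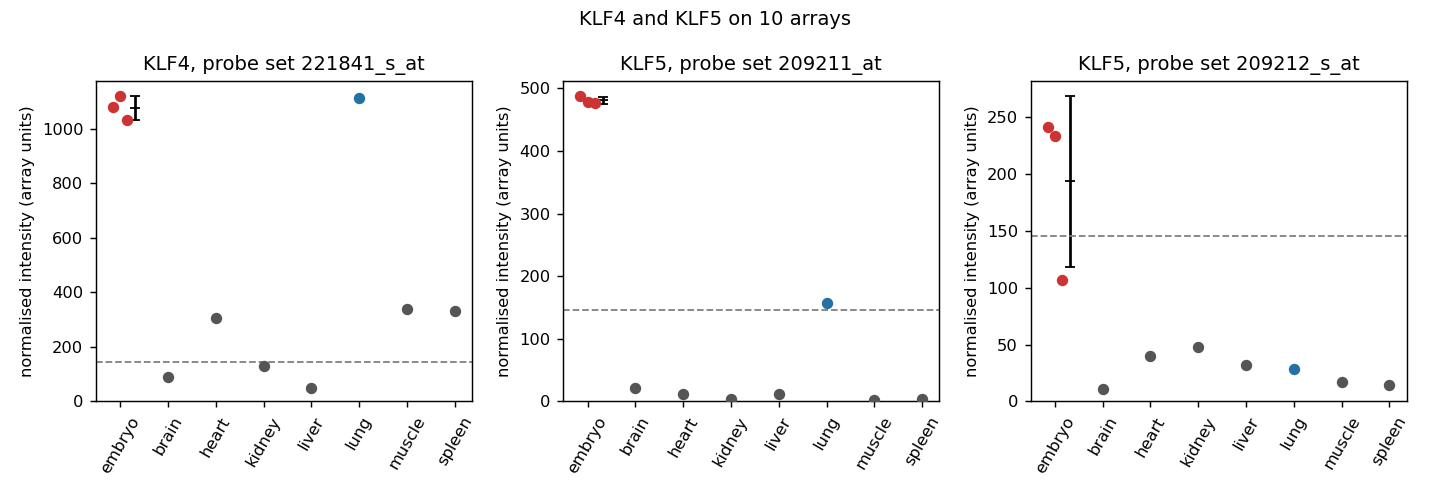
Normalised intensity (linear axis) of the KLF4 probe set and the 2 KLF5 probe sets on each of the 10 arrays, with embryos in red and lung in blue; the black bar is the mean ± SD of the 3 embryo arrays and the dashed line the array median of 145.7. KLF4 in lung (1113) lies among the embryo arrays (1032 to 1120), KLF5 in lung lies between embryos and the other tissues on 209211_at, and the third embryo array is the low one on 209212_s_at.

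The comparison of embryos with all 7 tissues, which the title of the series names, called KLF5 and not KLF4. KLF5 (209211_at) was higher in embryos by 2.56 ± 0.34 log2 (SE, limma adjusted p = 0.000587). A test required a value above the array median on at least 3 arrays. This probe set exceeded it on the 3 embryo arrays and lung alone, so it passed that filter only through the embryo arrays. In a fit without the filter its limma adjusted p was 0.00076. Among all 6775 probe sets tested, 8.87% were called higher and 3.22% lower. KLF4 was 1.88 ± 0.56 log2 higher (SE, limma adjusted p = 0.0511), just short of the threshold of 0.05. Without the lung array the KLF4 difference was 2.18 ± 0.41 log2 (SE, limma adjusted p = 0.00585), and it was also past the threshold in several of the other settings tried. With the 3 embryo arrays averaged and counted as 1 sample, KLF5 missed the threshold (2.56 ± 0.55 log2, SE, limma adjusted p = 0.0677) and KLF4 was far from it (limma adjusted p = 0.681).

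The second KLF5 probe set was above its array's median on 2 arrays, and 3 were required for a test. In a fit without that filter, which called 5.46% of 10186 probe sets higher, it was higher in embryos by 1.39 ± 0.28 log2 (SE, limma adjusted p = 0.01). An exact two-sided permutation test over the 120 ways to split 10 arrays into 3 and 7 gave p = 0.00833 for each KLF5 probe set, the smallest this design allows, and p = 0.0333 for KLF4. These 3 permutation p-values are unadjusted and treat all 10 arrays as interchangeable, which embryo arrays and single tissues are not. The smallest p needs groups that do not overlap. Embryos stood above all 7 tissues on all 3 arrays for 12.5% of probe sets tested and 9.43% of all analysed.

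**Figure D2:**
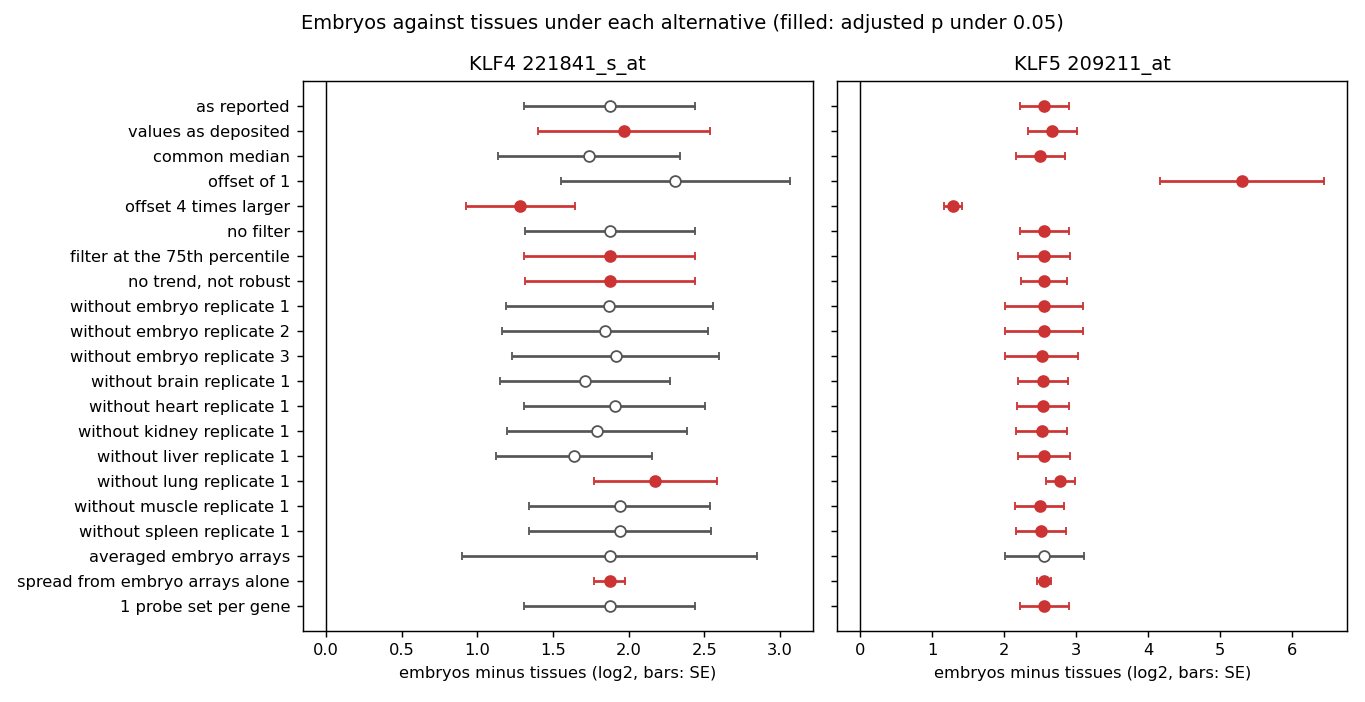
Difference between embryos and the 7 tissues (horizontal axis, log2, bars are SE) for KLF4 and for KLF5 by 209211_at, under each processing alternative listed on the vertical axis; filled red points had an adjusted p under 0.05. All KLF4 differences lie between 1.28 and 2.31 and straddle the threshold, while KLF5 passed in every setting shown but the one that averages the embryo arrays.

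Setting embryos against each tissue in turn separated lung from the rest. This fit has 8 groups and only the embryo arrays give it a spread, with 2 residual degrees of freedom, so it assumes that a tissue array varies as an embryo array does. KLF4 was higher in embryos than in 6 of the 7 tissues. The differences were 3.25 log2 against liver, 2.84 against brain, 2.49 against kidney, 1.60 against heart, 1.51 against spleen and 1.48 against muscle (SE 0.17 each, limma adjusted p from 0.00098 to 0.00465). Against lung it was -0.05 ± 0.17 log2 (SE, limma adjusted p = 0.873), with a 95% interval of -0.48 to 0.38. On that scale the interval spans ratios of embryo to lung from 0.719 to 1.31, so a difference of that size in either direction cannot be told from none.

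KLF5 (209211_at) was higher in embryos than in all 7 tissues in the same fit. The difference was 1.27 ± 0.17 log2 against lung (SE, limma adjusted p = 0.00606) and 2.56 to 2.91 log2 against the other 6 (limma adjusted p from 0.000994 to 0.0015). These calls stand beside a background in which 17.5% of probe sets were called higher in embryos than in brain, 18.3% than in heart, 12.9% than in kidney, 19.9% than in liver, 11.9% than in lung, 21.6% than in muscle and 8.55% than in spleen. The 2 genes' differences from lung were not tested against each other.

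For the second KLF5 probe set, the same fit without the filter gave differences from 1.11 log2 against kidney to 1.63 log2 against brain. It passed the threshold against none of the 7 tissues (limma adjusted p from 0.0512 to 0.138), although unadjusted p-values ran from 0.0127 to 0.0439 and all 7 intervals lay above 0. That fit called 10.9% of probe sets higher than in brain, 11.5% than in heart, 7.12% than in kidney, 12.7% than in liver, 6.5% than in lung, 13.6% than in muscle and 4.58% than in spleen.

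**Figure D3:**
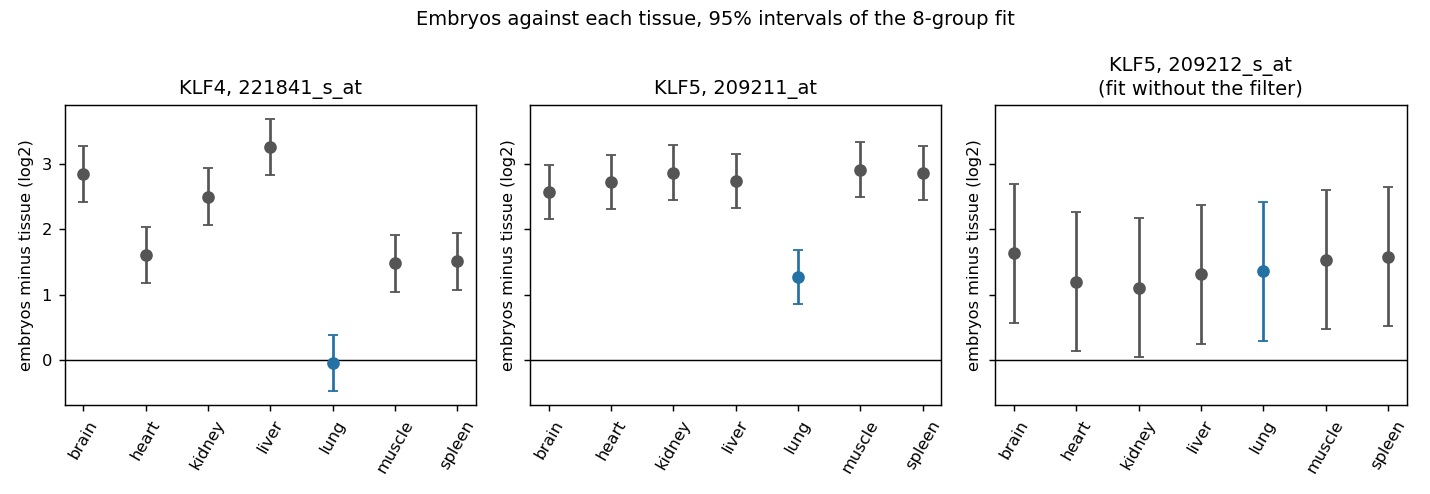
Embryos minus each tissue (vertical axis, log2) with 95% intervals from the 8-group fit, for the KLF4 probe set, KLF5 209211_at and, from the fit without the filter, KLF5 209212_s_at; lung is in blue. KLF4 against lung is at -0.05 with an interval across 0, and KLF5 against lung is at 1.27 on 209211_at and 1.35 on 209212_s_at.

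Within the adult tissues, lung was the brightest for KLF4 and for the first KLF5 probe set, as it was for 12% of the probe sets tested. Lung had been named in the choice of these genes. KLF4 read 3.27 times more in lung than in muscle, the next tissue, and 112 of the 10186 probe sets analysed (1.10%) had a lung value at least that far above the next tissue. For KLF5 (209211_at) lung read 158 and the other tissues at most 21.6, where the signal is too dim for a firm ratio. In the 8-group fit, lung exceeded the mean of the other 6 tissues by 2.24 ± 0.16 log2 for KLF4 (SE, limma adjusted p = 0.014) and by 1.51 ± 0.16 log2 for KLF5 (SE, limma adjusted p = 0.0168). The fit called 5.93% of probe sets higher and 3.14% lower in lung. Both calls were lost without the first embryo array (limma adjusted p = 0.055 for KLF4 and 0.0554 for KLF5) and without the second (0.116 for both). The differences themselves stayed at 2.24 for KLF4 and at 1.49 to 1.52 for KLF5, since embryo arrays enter this contrast only through the spread and the normalization. KLF5 by its second probe set was 0.04 ± 0.36 log2 from the other tissues in lung (SE, fit without the filter, limma adjusted p = 0.956).

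The lung array carried some lung markers. All 5 probe sets of SFTPC, a surfactant protein of alveolar type II cells, read 1135 to 3989 in lung and at most 139.7 on any other array. Of 19 lung epithelium genes listed, 8 had values and 4 of these were brightest in lung among the tissues (SFTPC, SFTPD, PDPN and CAV1). The others were brightest elsewhere, NKX2-1 and FOXA1 in liver, AGER in muscle and SFTPB in spleen. A dimmer probe set of NKX2-1 read 873 in lung. The summed level of the 8 was 3621 in lung, 931 to 1809 in the other 6 tissues and 1455 to 1673 in embryos. These sums take the probe set of highest mean log2 value for each gene. With the probe set of highest mean intensity, chosen after the data were seen, another SFTPC probe set enters and the sums were 6475 in lung, 849 to 1695 in the other tissues and 1405 to 1599 in embryos. General epithelial markers, 9 of 22 with values, summed to 2067 in lung, 1478 to 2916 in the other tissues, with kidney highest, and 3357 to 4211 in embryos. KLF5 on its first probe set was at 3.94 in kidney, where that sum was highest among tissues.

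Endothelial markers, 7 of 18 with values, summed to 1053 in lung and 716 to 1056 in the other 6 tissues, with 793 to 1091 in embryos. CDH5, VWF and CLDN5, which define endothelium, were not analysed here. Monocyte and macrophage markers, 12 of 16 with values, summed to 4157 in lung and 938 to 4719 elsewhere in the adult, with spleen highest, and to 922 to 1243 in embryos. KLF4 read 332 in spleen and 1113 in lung. In whole tissues, fewer cells of a type and less RNA per cell cannot be told apart, and the part of each cell type in the lung values was not tested.

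KLF4 and KLF5 (209211_at) were both brightest in embryos and lung. Over 8 points, the embryo mean and the 7 tissues, Pearson's r of the log2 values was 0.76 and Spearman's rho 0.31. KLF4 ranged from 48.5 to 340.4 over the other 6 tissues, while KLF5 was at most 21.6 there, too dim to set the tissues in order. The embryo mean and lung both exceeded the other 6 tissues for 3.79% of the probe sets tested, KLF4 and KLF5 among them, a pattern counted after the values were seen. The 2 KLF5 probe sets had an r of 0.81 and a rho of 0.21 over the 8 points. Over the 7 tissues alone, r was 0.04 and rho -0.18, so they shared the bright embryos and no order of tissues.

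**Figure D4:**
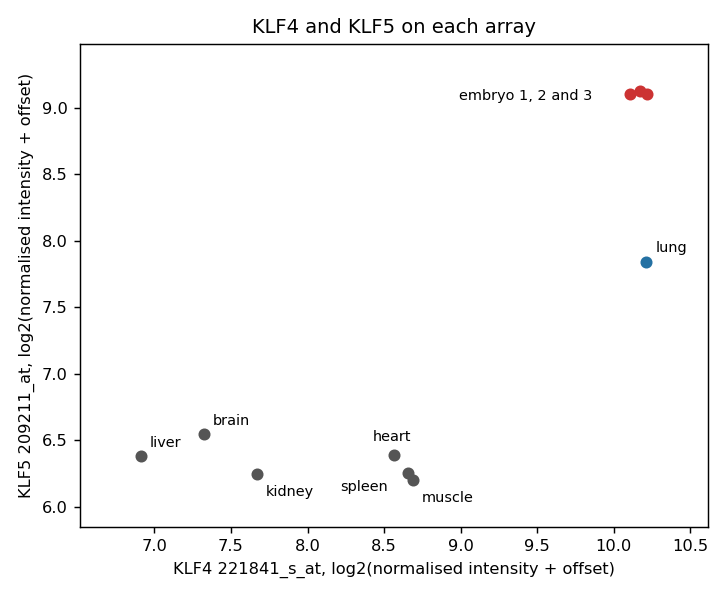
KLF4 (horizontal axis) against KLF5 by 209211_at (vertical axis), both as log2(normalised intensity + 72), on each of the 10 arrays. The 3 embryo arrays lie together at the upper right, lung has the embryo level of KLF4 and a lower KLF5, and the other 6 tissues lie below 6.6 on the KLF5 axis while spreading over the KLF4 axis.

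Among 4726 other genes, each by its brightest tested probe set, those most like KLF5 over the 8 points were EIF4H, PAXIP1, EAPP, PDPN and SLC22A8 (Pearson's r from 0.96 to 0.97, rho from 0.52 to 0.79). PDPN, podoplanin, a membrane glycoprotein of alveolar type I cells, had the same 2 bright groups, at 848, 754 and 693 in embryos and 553 in lung against 10.1 to 31.7 in the other tissues. It was higher in embryos by 2.78 ± 0.53 log2 (SE, limma adjusted p = 0.00583). Lung was the only tissue in which it exceeded the array median, so it passed the filter only through the embryo arrays. Its other probe set, not tested, read 110 to 170 in embryos and 112 in lung, with 84.0 to 156 elsewhere. SLC22A8, an organic anion transporter, had lung brightest among tissues as well, but at 68.8 against 584 to 715 in embryos. Kidney read 3.67 on that probe set, and whether it reads the bovine transcript of this gene was not tested.

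The genes most like KLF4 were MMP19, EP300, MYL6, SNRPG and STAG2 (r from 0.93 to 0.96, rho at least 0.90). In embryos against tissues their limma adjusted p ran from 0.0776 to 0.574. EP300, a histone acetyltransferase known to act with KLF factors, read 720, 691 and 818 in embryos and 698 in lung, and 329 to 578 in the other tissues. By the same measure KLF5 was 91st in likeness to KLF4, and KLF4 was 172nd in likeness to KLF5. All these correlations share the same 10 arrays and their scaling.

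Other KLF and SP factors bind related DNA. Of 23 further family genes 8 had values and 3 (KLF9, KLF15 and SP3) passed the filter by their brightest probe set. Limma called 0 of the 3 in embryos against tissues, and 0 had an unadjusted p under 0.05. Over all 4727 genes tested, each by its brightest tested probe set, 7.83% were called higher and 3.11% lower, so 3 genes say little of the family. Their median difference was -0.17 log2, beside 0.03 over all genes. KLF9, a hormone-responsive member, had an embryo mean of 392 ± 29.6 (SD, n = 3) and a tissue mean of 477 ± 212 (SD, n = 7). Its dimmer probe set was lower in embryos by 1.26 ± 0.25 log2 (SE, limma adjusted p = 0.00717), so the 2 KLF9 probe sets did not move together.

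KLF2, the endothelial and lymphocyte member of the family, differed from KLF4 and KLF5 in embryos. It read 5.69, 10.4 and 5.16 in embryos, 327 in lung, 207 in spleen, 95.1 in heart and 4.54 to 46.7 in the other tissues, and did not pass the filter. KLF2 thus shared the bright lung value and not the bright embryo value. SP3, a ubiquitous activator and repressor, was the family gene called in lung, at 0.82 ± 0.18 log2 above the other tissues (SE, limma adjusted p = 0.0482). KLF7, KLF12, SP2 and SP4 did not pass the filter either, and KLF3, KLF6, KLF10, KLF11, KLF13 and SP1 were not analysed here.

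**Figure D5:**
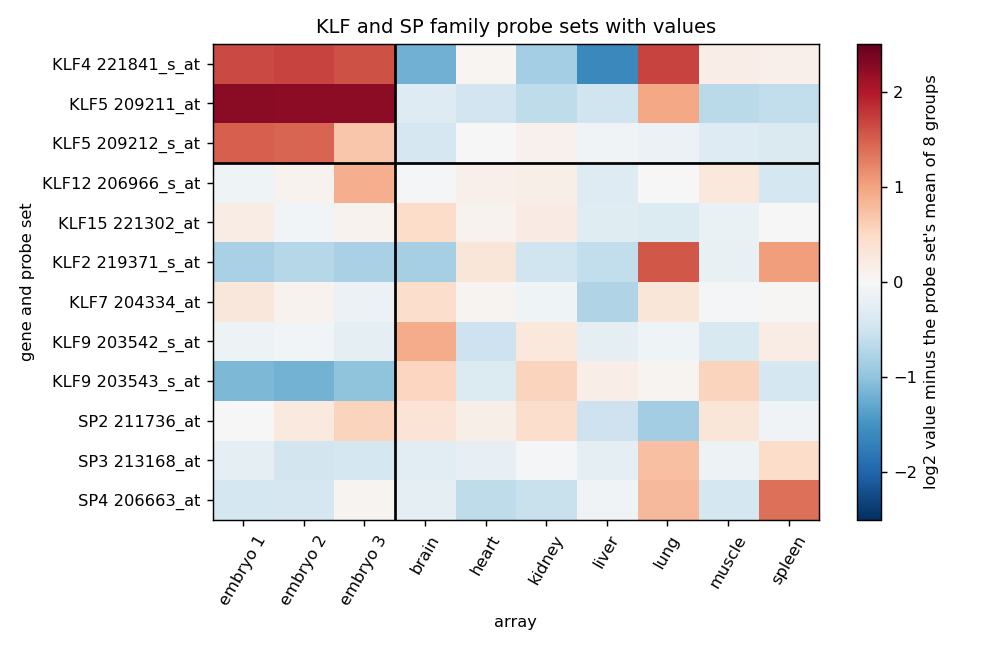
Colour shows the log2 value of each KLF or SP family probe set (rows) on each array (columns), minus that probe set's mean over the 8 groups; the black lines set off KLF4 and KLF5 from the rest and embryos from tissues. The KLF4 and KLF5 rows are red on the embryo arrays, while KLF2 is blue there (5.16 to 10.4) and red in lung (327) and spleen (207).

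Of the pluripotency factors that work with KLF4 and KLF5, 10 of 24 listed genes had values, 4 were tested, 3 were called higher in embryos and none lower, with a median difference of 2.04 log2. At an unadjusted p under 0.05 the counts were also 3 and 0. Over all genes tested the shares were 7.83% higher and 3.11% lower, and 15.6% and 10.3% unadjusted. A gene bright in embryos and nowhere else can pass the filter, while a gene bright in a single tissue cannot, so the count is not balanced between groups. The 3 were SOX2, DNMT3B and MYCN. DNMT3B and MYCN were above the array median on the embryo arrays alone, and SOX2 on the embryo arrays and brain alone. All 3 thus passed the filter only through the embryo arrays. MYCN, a relative of MYC, read 317, 414 and 393 in embryos, 107 in brain and at most 32.6 in the other tissues, a difference of 2.32 ± 0.31 log2 (SE, limma adjusted p = 0.000632). MYC itself, not tested, read 20.7, 50.5 and 63.3 in embryos and 495.5 in brain, with 44.2 to 142.5 in the other tissues. LIN28A, an RNA-binding protein of early embryos, was not tested for the same reason as the second KLF5 probe set, at 138 to 205 in embryos and at most 4.83 in tissues.

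The LIF and STAT3 pathway induces KLF4 in mouse embryonic stem cells. Of 20 genes listed, 11 had values and 7 were tested. Limma called 0 of the 7, too few to set against the 7.83% higher and 3.11% lower over all genes, and 2 were lower at an unadjusted p under 0.05, with a median difference of -0.29 log2. JAK1, a kinase of the pathway, read 81.8, 75.6 and 75.3 in embryos and 117 to 454 in the 7 tissues. Its difference was -1.003 ± 0.32 log2 (SE, limma adjusted p = 0.0613). The share of all probe sets with embryos below every tissue was not counted. JAK1 in lung was called above the mean of the other tissues, by 0.90 ± 0.16 log2 (SE, limma adjusted p = 0.0327). Lung read 440, below spleen at 454. IL6ST, the shared receptor subunit gp130, read 144 to 212.5 in embryos and 528.5 in lung by its tested probe set (-0.88 ± 0.27 log2, SE, limma adjusted p = 0.0588).

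Of 21 partners and modifiers of the KLF4 and KLF5 proteins, 15 had values and 12 were tested. HDAC3, a histone deacetylase, was called higher in embryos (0.78 ± 0.23 log2, SE, limma adjusted p = 0.0448) and none was called lower, with a median difference of 0.00 log2. HDAC3 exceeded the array median on the embryo arrays, heart and muscle alone, so it too passed the filter only through the embryo arrays. At an unadjusted p under 0.05, 4 were higher and 1 lower, beside 15.6% and 10.3% of all genes. The called share, 8.33%, is near the 7.83% of all genes. SMURF2, a ubiquitin ligase, read 351 to 370.2 in embryos and 338 in lung, with 83.1 to 239 in the other tissues. It was called higher in lung (0.97 ± 0.16 log2, SE, limma adjusted p = 0.03) and not in embryos (0.91 ± 0.30 log2, SE, limma adjusted p = 0.0704). WWP1, a ubiquitin ligase that acts on KLF5, was not tested, at 48.1 to 54.9 in embryos, 63.8 in lung and 321 in muscle.

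Trophectoderm genes, of the epithelium in which KLF5 acts, rose in 5 of 13 tested cases and fell in 1, beside 7.83% and 3.11% of all genes, with a median difference of 0.27 log2. KRT18 and TFAP2C, 2 of the 5, were above the array median on the embryo arrays alone. KRT8 was above it on the embryo arrays and lung alone, and TFAP2A, also called, on the embryo arrays and kidney alone. All of these passed the filter only through the embryo arrays. The gene that fell was ATP1B1, a subunit of the sodium pump, which read 205 to 291 in embryos and 553 to 1539 in tissues (-1.94 ± 0.30 log2, SE, limma adjusted p = 0.00168). ATP1B3, another subunit of that pump, rose. It read 3779 to 4181 in embryos and 140 to 667 in tissues (3.21 ± 0.39 log2, SE, limma adjusted p = 0.000306). All 13 of the 19 listed genes that had values were tested. KRT8, a keratin of simple epithelia, resembled KLF5 in having lung as the brightest tissue, at 229 against 1278 to 1927 in embryos and 2.21 to 106 in the other tissues. It was called higher in lung than in the other tissues (1.67 ± 0.25 log2, SE, limma adjusted p = 0.0241). KRT18, its keratin partner, read 365 to 463 in embryos, 1.29 in lung and 58.1 in liver, so it did not share the lung value.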

How the data were processed

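The deposited table holds linear intensities, 1 for each probe set on each array. How the authors scaled these intensities is not given in these sources, nor is the software. Values were present for 10219 of 22283 probe sets, the same on all 10 arrays; 33 controls were left out and 10186 analysed. Of these, 8847 had 1 human symbol in the platform annotation, 479 several and 860 none. The symbols KLF4 and KLF5 are both in the bovine RefSeq gene table. No genome build is named, so no coordinates are given.

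The 2% trimmed means differed 1.90-fold, above a limit of 1.5, so the arrays were quantile normalized, which hides differences in total signal. The offset of 72 added before log2 is the 25th percentile of the normalized arrays, rounded, and it understates changes of dim probe sets. A probe set was tested if it exceeded the median of the array on 3 or more arrays, which 6775 did. Tests used limma 3.58.1 in R 4.3.3 (two-sided, eBayes with the trend and robust options, Benjamini-Hochberg adjustment, threshold 0.05), fitted on all tested probe sets. The fits were tested on simulated data. Figures used matplotlib 3.10.9 in Python 3.11.15.

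A gene with several probe sets is represented by the brightest tested one. Named genes were all members, family genes with values, up to 4 called genes of each list and the 5 genes most like each member; others were named after their values were seen. The members and lists were chosen with earlier results of these data known. Alternatives were other scalings, offsets, filters, eBayes settings, averaged embryo arrays and arrays left out.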

Additional observations from a re-analysis of the deposited data

Results flagged for a closer look

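Lung stood apart from the other tissues for 2 of the 3 probe sets. Among the 7 tissues, KLF4 in lung read 1113, and the gap to the next tissue took up 0.726 of the whole range, above the 95% critical value of Dixon's test. On the log2 scale the same share was 0.462, below that value. KLF5 in lung, by 209211_at, read 158, with a share of 0.872, and 0.789 on the log2 scale. For 209212_s_at the brightest tissue was kidney, with a share of 0.196. Such a test flags about 1 in 20 groups by chance, and it treats 7 different tissues as 1 group. With 1 lung array, no further array was there to set beside these values.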

How the results depend on the processing

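No paired analysis was possible because the groups compared share fewer than 2 replicate numbers. KLF4 in embryos against tissues kept its sign in all 21 alternatives and stayed short of the threshold in 14. It passed with the values as deposited (1.97 log2, limma adjusted p = 0.0359), an offset 4 times larger (1.28, 0.0385), a stricter filter, the 75th percentile (1.88, 0.0396), plain eBayes (1.88, 0.0487) and the spread from the embryo arrays alone (1.88, 0.000301). The exact permutation test (1.88, unadjusted p = 0.0333) and the fit without lung passed too. With an array left out it ranged from 1.64 to 2.18. KLF5 by 209211_at kept its call in 20 of 21, ranging from 1.29 with the larger offset to 5.31 with an offset of 1, and from 2.49 to 2.78 with an array left out; averaged embryo arrays (2.56) ended it. By construction the offset sets this range, since the tissues other than lung read near 0. In lung against the other tissues, without an embryo array KLF4 ranged from 2.24 to 2.25 and KLF5 from 1.45 to 1.52. Against lung, the KLF4 difference of embryos ran from -0.39 log2 with a common median to -0.02. None of those 10 alternatives called it. KLF4 was called above 5 tissues without the second embryo array, the call against spleen being lost (1.48, limma adjusted p = 0.0609), and above 6 otherwise. Over all probe sets, 601 higher and 218 lower became 73 and 5 with averaged embryo arrays and 1651 and 1284 with the spread from the embryo arrays alone. With any 1 array left out they ran from 64 to 636 and from 27 to 296. For 209212_s_at the difference was 0.60 with the larger offset and 2.85 with an offset of 1. With the probe set of highest mean intensity per marker gene, added after the data were seen, the summed level in lung moved from 3621 to 6475 for lung epithelium and from 4157 to 4662 for monocytes and macrophages. Dim signal limits the order of tissues for both KLF5 probe sets.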

Other observations

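Some genes linked to KLF4 or KLF5 were bright on a single array. IL6ST had a further probe set at 1040 in lung and at most 20.6 on the other 9 arrays, while its tested probe set was brightest in liver at 739. SOCS1, an inhibitor of the same pathway, read 1081 in muscle and less than 5 elsewhere. JAK2 read 424 in liver and at most 22.5 elsewhere, and GRHL2, an epithelial transcription factor, 756.5 in liver and at most 94.5 elsewhere. These genes were picked after their values were seen, and with 1 array per tissue their values have no replicate.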
